A study of Mus musculus with 3 samples.

Results

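The genes described here build microtubules and move cargo along them: tubulins, kinesins, dynein and dynactin, intraflagellar transport proteins, microtubule-associated and plus-end proteins, and stathmins. Members were all genes with a single-symbol probe set whose symbol starts with Kif, Klc, Dync, Dynl, Dctn, Tuba, Tubb, Tubg, Ift, Mapre or Stmn, or is Map1a, Map1b, Map2, Map4, Map6, Map7, Mapt or Dcx, which gave 72 of the 8251 genes measured. Map1a carried no probe set of its own. The prefixes also take in Tubgcp3 and Tubgcp4, subunits of the gamma-tubulin ring complex, Kifap3, the accessory subunit of kinesin-2, and Tubb2a-ps2, a pseudogene.

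The RNA came from neural retina of homozygous Rp1 knockout mice (Rp1-/-) at postnatal day 21, on a background mixed from 129/SvEv and C57BL/6. There were 3 samples, each a pool of the retinas of 3 to 4 mice taken between 1 and 2 pm, and each was hybridised to 1 Affymetrix U74Av2 array. They form 1 group, numbered here as replicates 1 to 3, with no control retina analysed here. All comparisons are therefore between pools of the same genotype, none was tested between conditions, and no value shows an effect of the knockout. The array annotation used here listed no probe set for Rp1, so the targeted gene was not analysed.

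Microtubules are polymers of alpha- and beta-tubulin, nucleated by gamma-tubulin. Kinesins mostly carry cargo towards the plus end, and cytoplasmic dynein with its activator dynactin carries it towards the minus end. A photoreceptor is a demanding user of this transport, because the outer segment is a modified cilium that is renewed throughout life and receives its proteins through the connecting cilium, with the help of intraflagellar transport. The RP1 protein itself binds the microtubules of the photoreceptor axoneme and carries doublecortin domains, as doublecortin (Dcx) does.

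Promoter letters were examined first, since many cilium genes are controlled by RFX factors through the X-box, a motif built from inverted copies of the half-site GTTGCC. RefSeq promoter windows (GRCm38.p6) were matched by symbol for 54 of the 72 genes, and the 250 bases before each start were searched on both strands for 6 motifs that were settled on after a first look at a wider set. The half-site GTTGCC lay before 14 of the 54 members (25.9%), against 11.8% of the 6522 other array genes with a window and 11.8% of all 27025 genes in the table. These members were Dcx, Dync1i1, Dync1i2, Dynll1, Ift27, Kif16b, Kif23, Kif3a, Kif3c, Kif9, Map1b, Mapre3, Tuba1c and Tuba8. A fuller X-box, GTNNCCATGGNNAC, which can overlap GTTGCC, was found before 2 of 54, Kif9 and Mapre3, against 0.4% of the other array genes. The looser form GTNNCCNNGGNNAC, which contains the fuller one, lay before 4 of 54 (7.4%), also Dctn3 and Kif23, against 2.0%. The photoreceptor homeobox motif TAATCC occurred before 3 of 54 (5.6%) against 6.3%, CACGTG before 5 (9.3%) against 9.9%, and CCAAT before 25 (46.3%) against 2607 of the 6522 others. Matches describe letters only, and no binding was measured. The stretches below are those with the fuller X-box, 2 whose genes had a wide range between pools (Ift27 and Dynll1), and Kif3a, a motor subunit of intraflagellar transport. Capitals mark the match, GGCAAC being GTTGCC read on the other strand. Positions are in GRCm38.p6.
Kif9, plus strand, chr9:110476943-110476993: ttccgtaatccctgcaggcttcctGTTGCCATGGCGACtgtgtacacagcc
Mapre3, plus strand, chr5:30814464-30814525: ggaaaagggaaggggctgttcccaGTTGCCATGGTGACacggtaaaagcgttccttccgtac
Ift27, minus strand, chr15:78174082-78174114: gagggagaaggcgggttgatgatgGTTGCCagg
Dynll1, minus strand, chr5:115301105-115301158: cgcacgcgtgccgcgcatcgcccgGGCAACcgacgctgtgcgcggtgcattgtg
Kif3a, plus strand, chr11:53567247-53567300: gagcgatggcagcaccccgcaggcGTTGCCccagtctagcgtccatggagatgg
In Ift27 the match ended 4 bases before the start, in Kif9 the fuller match ended 14 bases before it, and in Mapre3 it ended 140 bases before it.

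Signals below are array intensities on a common scale, and a gene was called above background where it passed the 95th percentile of 19 bacterial and yeast control probe sets, which was 160.3, 80.7 and 107.1 in replicates 1, 2 and 3. Probe sets differ in response, so levels are compared between pools and never between genes. Replicate 1 stood apart from the other pools: over the 5006 genes above background on all arrays, its log2 signals correlated at 0.824 and 0.822 with replicates 2 and 3, which correlated with each other at 0.937 (a description across genes that share a scale). It also differed by signal level. Genes in the lowest tertile of signal deviated by 0.43 on the log2 scale in replicate 1 from the mean of the other pools, and genes in the highest tertile by -0.23. Summed markers of pigment cells and stroma were lowest in replicate 1. The summed signal of 6 measured pigment cell markers was 2031 in replicate 1 against 12917 and 8368 in replicates 2 and 3, with 3, 6 and 6 of them above background, and that of 7 stromal markers was 2475 against 15815 and 10823, with 4, 7 and 7 above. Not every marker followed these sums: Ttr of the pigment list was lowest in replicate 3 (609, 891 and 533). Of the stromal list, Lum (193, 166 and 244) and Col1a1 (556, 409 and 769) were lowest in replicate 2. Sums for other tissues set replicate 2 apart instead. They were 5490, 31716 and 8254 for 4 red cell markers (2, 4 and 4 above background) and 128467, 189739 and 133972 for 7 lens markers. The red cell sum was mostly Hba-a1 (4077, 25566 and 6661), and Slc4a1 (113, 109 and 240) was lowest in replicate 2. Of the lens list, Bfsp1 (1123, 781 and 448) and Gja3 (421, 208 and 143) were highest in replicate 1. No marker was listed at 0. Rod markers, 7 of 7 above background on every array, summed to 101810, 149206 and 102230. The part of these differences in the values below was not tested, and in such tissue RNA fewer cells of a type and less RNA per cell cannot be told apart.

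Most of the machinery gave signal in every pool. Signal passed the background limit in each of the 3 pools for 57 of the 72 genes (79.2%), against 60.7% of all genes. A further 9 were above it on some arrays and 6 on none. The 6 at background throughout were the dynein light chain gene Dynlt1b (73.6, 38.4 and 47.2 in replicates 1, 2 and 3), the pseudogene Tubb2a-ps2 (98.2, 31 and 38.5) and the kinesins Kif11, Kif20a, Kifc1 and Kifc2, whose signals lay between 10.9 and 98.9. The roles differed in their counts: all 6 intraflagellar transport genes and all 4 stathmins were above background on every array, 9 of 10 microtubule-associated proteins, 13 of 15 tubulins, and 11 of 13 dynein and dynactin genes, but 14 of 24 kinesins (58.3%).

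**Figure D1:**
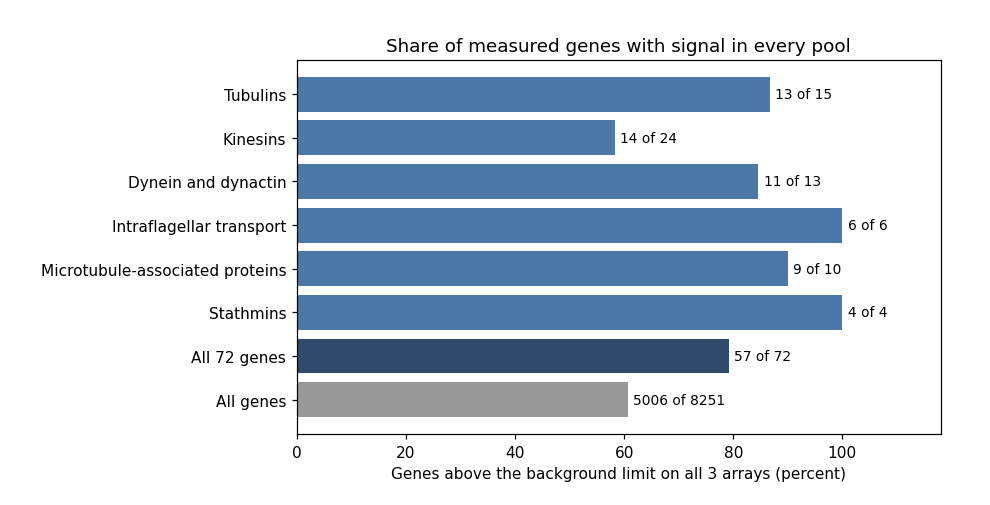
Bars give the percentage of measured genes above the background limit on all 3 arrays for each role, for all 72 genes and for all 8251 genes, with the counts beside them. The kinesins, at 58.3%, are the only role below the 60.7% of all genes.

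Tubulins form the track. The alpha-tubulin gene Tuba1a had signals of 17464, 25501 and 17232 in replicates 1, 2 and 3, and Tuba1c had 19155, 29684 and 20365. At these probe sets both were highest in replicate 2 with the other pools close to each other, except that quantile normalization made replicate 1 the highest for Tuba1a. A further Tuba1a probe set was also highest in replicate 2 but clearly lowest in replicate 1 (9098, 17295 and 11709). The alpha-tubulin genes resemble each other closely in sequence, and cross-hybridisation among them was not tested. A probe set listed for 4 symbols, 3 of them alpha-tubulins, and hence naming no gene, gave 21126, 28302 and 20971. This was the same order of high and low pools as the probe set used for Tuba1a.

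Tuba4a and Tuba8 went different ways. Tuba4a was 1232, 800 and 662, highest in replicate 1 under each scaling. Tuba8, a divergent alpha-tubulin, was 503, 815 and 1265, a 2.52-fold range with its highest signal in replicate 3 under the trimmed-mean scaling used here, median scaling and quantile normalization alike. Among beta-tubulins, the neuronal isotype Tubb3 gave 3232, 5131 and 3863. The widely expressed Tubb5 gave 6148, 7665 and 6110, and Tubb2a gave 4143, 7220 and 6198. These 3 were highest in replicate 2, but after quantile normalization Tubb5 was highest in replicate 1 and Tubb2a in replicate 3. Further probe sets of Tubb3 (635, 696 and 727) and Tubb2a (474, 188 and 639) were highest in replicate 3, and that of Tubb2a was lowest in replicate 2. The further probe set of Tubb5 was highest in replicate 2 and lowest in replicate 1 (4210, 6573 and 6157). Tubb4a (3130, 2554 and 3513) and Tubb6 (695, 792 and 827) were highest in replicate 3, except for Tubb4a after quantile normalization (replicate 1) and Tubb6 with a common median (replicate 2). Tubb4b was 343 and 312 in replicates 1 and 3 but 42.9, below background, in replicate 2, so replicate 1 was at least 4.25-fold higher.

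Gamma-tubulin and its ring complex were measured by 4 genes, all above background. Tubg1, the ubiquitous gamma-tubulin, was 458, 472 and 901, with replicates 1 and 2 almost equal and replicate 3 higher, a 1.97-fold range. Its paralogue Tubg2 was 501, 353 and 472. The ring complex genes Tubgcp3 (730, 587 and 481) and Tubgcp4 (387, 337 and 331) were highest in replicate 1, except that a common median made replicate 2 the highest for both and quantile normalization did so for Tubgcp4.

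**Figure D2:**
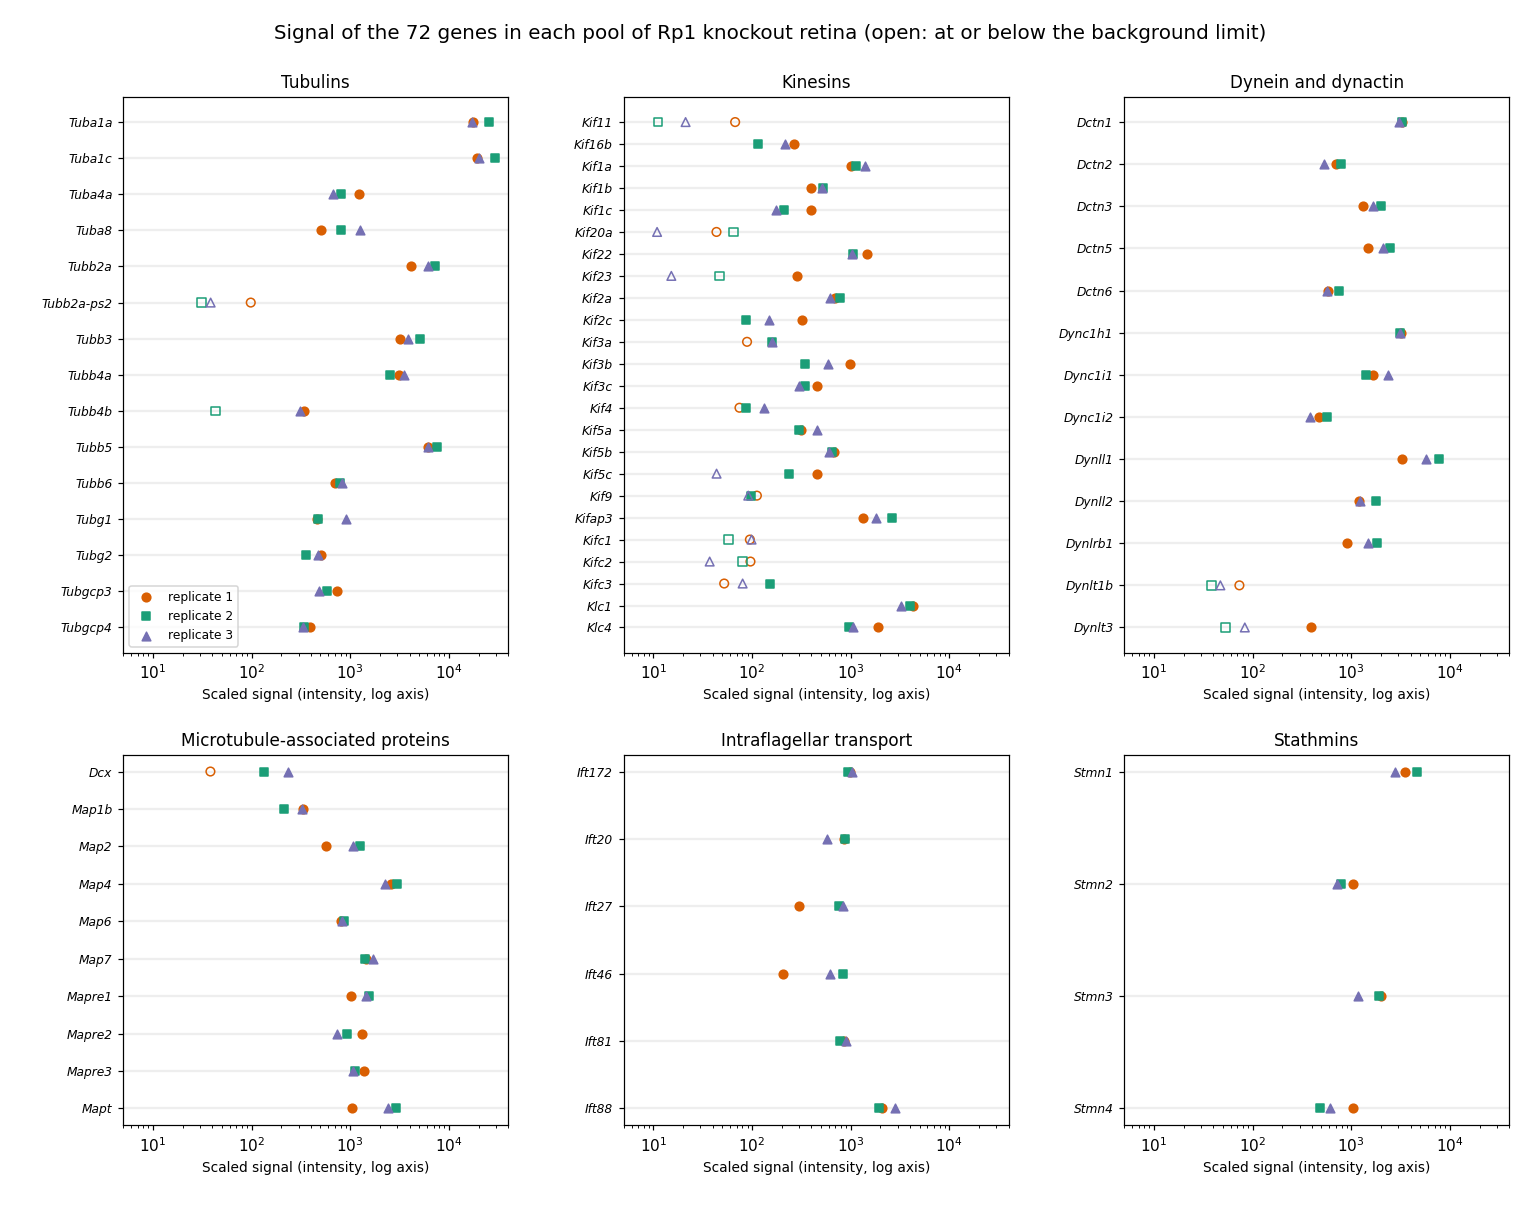
Each row is a gene and each point a pool (circle, replicate 1; square, replicate 2; triangle, replicate 3), with scaled signal on a log axis and open points at or below the background limit of that array. Points of Dync1h1, Dctn1 and Ift172 lie on top of each other, whereas Ift46, Ift27 and Mapt have replicate 1 apart to the left. Those of Kif3b are about evenly spaced, with replicate 1 furthest to the right.

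Kinesin-1, the conventional anterograde motor of neurons, was represented by 3 heavy chains and 2 light chains. Kif5b, the ubiquitous heavy chain, was among the steadiest members, with 674, 641 and 608. The neuronal heavy chain Kif5a gave 312, 298 and 455. Kif5c, also neuronal, gave 458, 236 and 43.7, below background in replicate 3 and at least 4.27-fold higher in replicate 1. The light chain Klc1 was 4328, 4015 and 3217, and its further probe sets were highest in replicate 1 (1614, 563 and 741) and in replicate 2 (157, 359 and 245, below background in replicate 1). Klc4 was 1887, 952 and 1065, so replicate 1 lay above the other pools, although another Klc4 probe set was highest in replicate 2 (100, 157 and 116) and below background in replicate 1.

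Kinesin-2 drives anterograde intraflagellar transport as a complex of Kif3a, Kif3b and Kifap3. Kif3b and Kifap3 differed in their highest pool at the probe sets used, and the direction for Kif3a was not settled. Kif3b was 985, 345 and 587, highest in replicate 1 with a 2.85-fold range. Kifap3 was 1347, 2649 and 1794, lowest in replicate 1, and its further probe set was below background on every array (20.8, 4.91 and 17.1). Kif3a was below background in replicate 1 at 89 and was 159 in each of the other pools. As 159 is under the limit of 160.3 in replicate 1, no fold was given. A further Kif3a probe set gave the opposite picture with 287, 48.2 and 65.3, above background in replicate 1 alone. Kif3c, a neuronal partner of Kif3a, gave 452, 343 and 302. Kif17 carried no probe set of its own.

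The kinesin-3 motors Kif1a and Kif1b carry synaptic vesicle precursors and mitochondria. Kif1a was 1002, 1128 and 1412, and Kif1b was 396, 521 and 518. A further Kif1b probe set was instead highest in replicate 1 (482, 135 and 92.6, below background in replicate 3). The related Kif1c gave 399, 210 and 177 and Kif16b, which moves early endosomes, gave 266, 115 and 218, both highest in replicate 1. The log2 range of Kif16b was 1.21 and became 0.76 with a common median and 0.68 after quantile normalization. In this lowest tertile of signal 61.9% of all genes were highest in replicate 1, as were 6 of the 7 members there. Kif2a, a microtubule-depolymerising kinesin of neurons, was 693, 780 and 624. Of the 14 kinesins above background on all arrays 9 were highest in replicate 1, against 42.6% of all genes. This became 6 with a common median, against 23.8% of all genes, and 8 after quantile normalization, against 39.1%. Of the remaining kinesins, Kif9 (112, 97.3 and 91.6) was above background in replicate 2 alone, and so was Kifc3 (52.2, 153 and 80.3).

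Of the 7 measured kinesins of the mitotic spindle and of cell division, Kif2c, Kif4, Kif11, Kif20a, Kif22, Kif23 and Kifc1, 2 passed the background limit in every pool (28.6%, while 60.7% of all genes did), 2 in some and 3 in none. Kif22 gave 1455, 1063 and 1022. Kif2c gave 321, 86.3 and 150, a 3.72-fold range with replicate 1 highest. Kif23, of the central spindle, was 283 in replicate 1 and below background at 46.7 and 15.2 in the other pools, at least 2.64-fold lower. Proliferation markers differed in their highest pool. Mki67 (246, 7.31 and 7.5) and Aurkb (212, 35 and 72) were above background in replicate 1 alone. Cdc20 (495, 244 and 182), above background in every pool, was also highest in replicate 1. Ccna2 (791, 727 and 1004) and Plk1 (543, 415 and 724) were highest in replicate 3 and Pcna (732, 992 and 788) in replicate 2, all above background in every pool. The 9 measured proliferation markers summed to 3214, 2543 and 2913, with 6, 4 and 4 above background, and Top2a, Cdk1 and Aurka were below background on all 3 arrays. Their part in the kinesin values was not tested.

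Cytoplasmic dynein and dynactin included the 2 steadiest genes of the set. The heavy chain Dync1h1, the motor itself, gave 3177, 3112 and 3090, a log2 range of 0.04. Dctn1, the p150 subunit that binds dynein and the microtubule, gave 3264, 3288 and 3070, a log2 range of 0.10. That steadiness holds for the trimmed-mean scaling alone, since the ranges became 0.42 and 0.46 with a common median and 0.44 and 0.42 after quantile normalization. The intermediate chain genes differed, with Dync1i1 at 1681, 1413 and 2380 and Dync1i2 at 470, 571 and 380, highest in replicates 3 and 2 in turn.

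Ranges differed among the light chains. Dynll1, the LC8 light chain shared by dynein and other complexes, was 3269, 7687 and 5692, a 2.35-fold range with replicate 1 lowest. Its log2 range of 1.23 became 0.71 after quantile normalization. Its paralogue Dynll2 was 1195, 1787 and 1227, a log2 range of 0.58. The roadblock chain Dynlrb1 was 908, 1819 and 1465, a log2 range of 1.00, but a further probe set ran the other way (822, 530 and 390). Dynlt3 was 394 in replicate 1 and below background at 52.9 and 83.5 in the others. Dctn2 was 701, 783 and 527, while its further probe set was highest in replicate 1 (1477, 567 and 662). Dctn2, Dctn3, Dctn5 and Dctn6 had ranges of 0.57, 0.61, 0.74 and 0.42 on the log2 scale.

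Of the 11 dynein and dynactin genes above background, 9 were highest in replicate 2 at the probe sets used, including all 5 dynactin genes (Dctn2 not at its further probe set), against 33.0% of all genes and 53.3% of genes in the highest tertile of signal. Scaling to a common median gave 10 of 11 and quantile normalization 8 of 11, with 5 and 4 of the dynactin genes. Under these scalings 55.2% and 34.3% of all genes were highest in replicate 2. Summed rod, lens, cone and Müller glia markers were highest in the same pool. So were those of amacrine and horizontal cells, pigment cells, stroma and red cells. Sums for ganglion cell, bipolar cell, proliferation and motile cilium markers were highest in other pools. Signals of all 8251 genes also summed highest in replicate 2, to 5676250, 6431767 and 5873301 in replicates 1, 2 and 3. The 7 lens markers, all above background on every array, summed to 128467, 189739 and 133972. Gene by gene, 5 of the 7 rod, 5 of the 7 lens and 4 of the 7 Müller glia markers were highest in replicate 2. All 3 cone markers above background on every array were highest there too. Of the Müller glia list, Glul (3557, 2390 and 1378) and Vim (475, 91.1 and 174) were highest in replicate 1, and Car14 (1158, 2196 and 2702) in replicate 3. The part of these cells and tissues in the dynein and dynactin values was not tested.

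The intraflagellar transport genes encode components of the trains that move along the axoneme, where complex B serves anterograde and complex A retrograde movement. All 6 measured genes belong to complex B. Ift88, whose mutation in mice disturbs outer segment assembly, was 2075, 1958 and 2818. Ift172 was 993, 934 and 1035, Ift81 was 855, 774 and 907, and Ift20, which also sits at the Golgi, was 859, 872 and 578. The further probe set of Ift81 gave 228, 151 and 83.3, below background in replicate 3. For Ift172 and Ift81 the 3 pools lay within ranges of 0.15 and 0.23 on the log2 scale.

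Ift46 and Ift27 were the exceptions. Ift46 was 208, 838 and 611, the widest range of all 57 members above background at 4.02-fold, with replicate 1 lowest. Its further probe set did not show this (626, 363 and 609), and the mean of both had a log2 range of 0.55. Ift27, a small GTPase of complex B, was 300, 768 and 831, a 2.77-fold range, and its further probe set was lowest in replicate 1 too (208, 227 and 368). For Ift88, by contrast, the further probe set had the wider range (312, 499 and 2252). Ift52, Ift57 and Ift140 carried no probe set of their own.

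Microtubule-associated proteins of neurons followed several patterns. Mapt, the gene of axonal tau, was 1047, 2922 and 2416, a 2.79-fold range with replicate 1 lowest. A further Mapt probe set agreed in order (710, 1487 and 1180), but another did not vary in that way (1111, 988 and 1056). Map2, of dendrites, was 566, 1265 and 1061, also lowest in replicate 1. Map1b, of growing axons, was 333, 212 and 322, Map6, which makes microtubules cold-stable, was 810, 871 and 827, and Map7, a kinesin-1 recruiter, was 1463, 1412 and 1704. Map4, the widely expressed relative of tau, was 2603, 2974 and 2271, and its further probe set was highest in replicate 3 (34.6, 83.8 and 229, below background in replicate 1). Dcx, a marker of migrating and young neurons, was 134 and 232 in replicates 2 and 3 but lay below background in replicate 1 at 38.3, at least 1.45-fold higher in replicate 3.

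The end-binding proteins track growing plus ends. Mapre1 was 1013, 1552 and 1453, lowest in replicate 1. Mapre2 (1326, 933 and 728) and Mapre3 (1381, 1127 and 1071) were highest there, although Mapre3 was highest in replicate 2 with a common median. The further probe set of Mapre3 was likewise highest in replicate 1 (976, 744 and 472), but both further probe sets of Mapre1 were highest in replicate 1 as well (534, 475 and 452, and 224, 30.1 and 142), against the probe set used for that gene. The last of these was below background in replicate 2.

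Stathmins bind tubulin dimers and promote microtubule disassembly. Stmn1, the founding member, was 3521, 4658 and 2808. The neuronal members gave 1036, 787 and 719 for Stmn2, 1999, 1932 and 1164 for Stmn3, and 1037, 481 and 607 for Stmn4. At these probe sets replicate 3 was the lowest pool for 3 of the 4, against 31.6% of all genes. The same count held after median scaling (29.0% of all genes) and after quantile normalization (33.5%). Other probe sets differed: 1 of Stmn2 was lowest in replicate 2 (1566, 1205 and 1359), as was another that passed the limit in replicate 1 alone (307, 17 and 101), and 1 of Stmn3 was highest in replicate 3 and below background in replicate 1 (76.4, 104 and 488). The further probe set of Stmn1 was highest in replicate 1 and below background in the other pools (265, 39.9 and 33.6). Among 7 measured ganglion cell markers, all above background on every array, 6 were also lowest in replicate 3, and their signals summed to 8499, 7163 and 5961. The part of ganglion cell RNA in the stathmin values was not tested.

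Spread between the pools was read on the log2 scale. Among the 57 members above background on all arrays, 12 had a log2 range of 1 or more, or 21.1%, against 28.3% of all such genes, and their median SD was 0.32 against 0.36. The 12 were Ift46, Kif2c, Kif3b, Mapt, Ift27, Tuba8, Dynll1, Kif16b, Kif1c, Map2, Stmn4 and Dynlrb1. Just outside lay Klc4, Kifap3 and Tubg1 at 0.99, 0.98 and 0.98. Every one of the 12 had either its highest (5 genes) or its lowest (7 genes) signal in replicate 1. Each kept that place with a common median and after quantile normalization. Whatever their range, 42.6% of all genes above background were highest in replicate 1 and 36.0% were lowest there. The share among all genes with a log2 range of 1 or more was not counted. Between replicates 2 and 3 alone, none of the 57 differed by 1 or more, against 5.03% of all genes, and the largest difference was 0.93, for Tubg1. The place of replicate 1 in the 12 genes follows from this and is no separate result. Where replicates 2 and 3 differ by less than 1, a range of 1 or more must have an extreme in replicate 1.

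**Figure D3:**
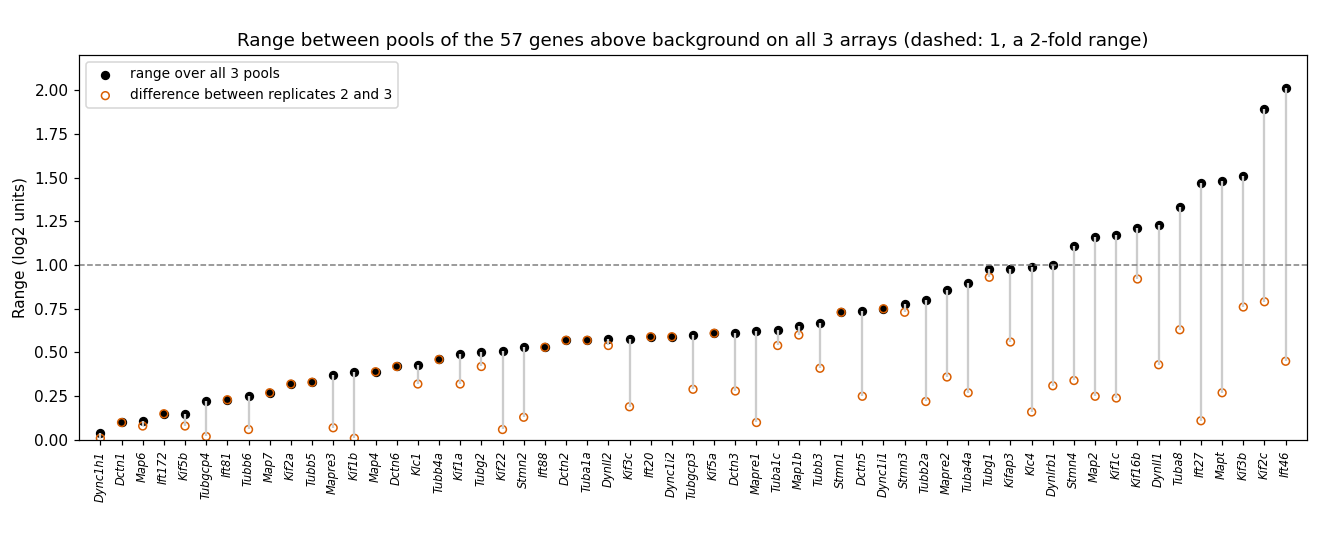
For each of the 57 genes above background on all 3 arrays, ordered by range, the filled point is the log2 range over the 3 pools and the open point the log2 difference between replicates 2 and 3. The 12 filled points at or above the dashed line at 1 all have open points below it.

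Direction followed signal level as it did for genes at large. In replicate 1 the members deviated by a median of 0.49, 0.02 and -0.17 in the lowest, middle and highest tertile of signal, where all genes deviated by 0.43, 0.11 and -0.23. In replicate 2 the members' values were -0.34, 0.05 and 0.33 against -0.32, -0.02 and 0.24. Over all levels, 20 members were lowest in replicate 1, 14 in replicate 2 and 23 in replicate 3, against 36.0%, 32.4% and 31.6% of all genes. By contrast, 20 were highest in replicate 1, 25 in replicate 2 and 12 in replicate 3, or 35.1%, 43.9% and 21.1%, against 42.6%, 33.0% and 24.4% of all genes. The members' tally by pool depends on scaling, since a common median lowered the log2 signals of replicate 1 by a median of 0.22 and raised those of replicate 2 by 0.23, after which 9 members were highest and 36 lowest in replicate 1, in place of 20 and 20. The tally of all genes moved as well, to 23.8% highest and 54.2% lowest in replicate 1. Of the 57 members, 43 kept their highest pool with a common median and 46 after quantile normalization.

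**Figure D4:**
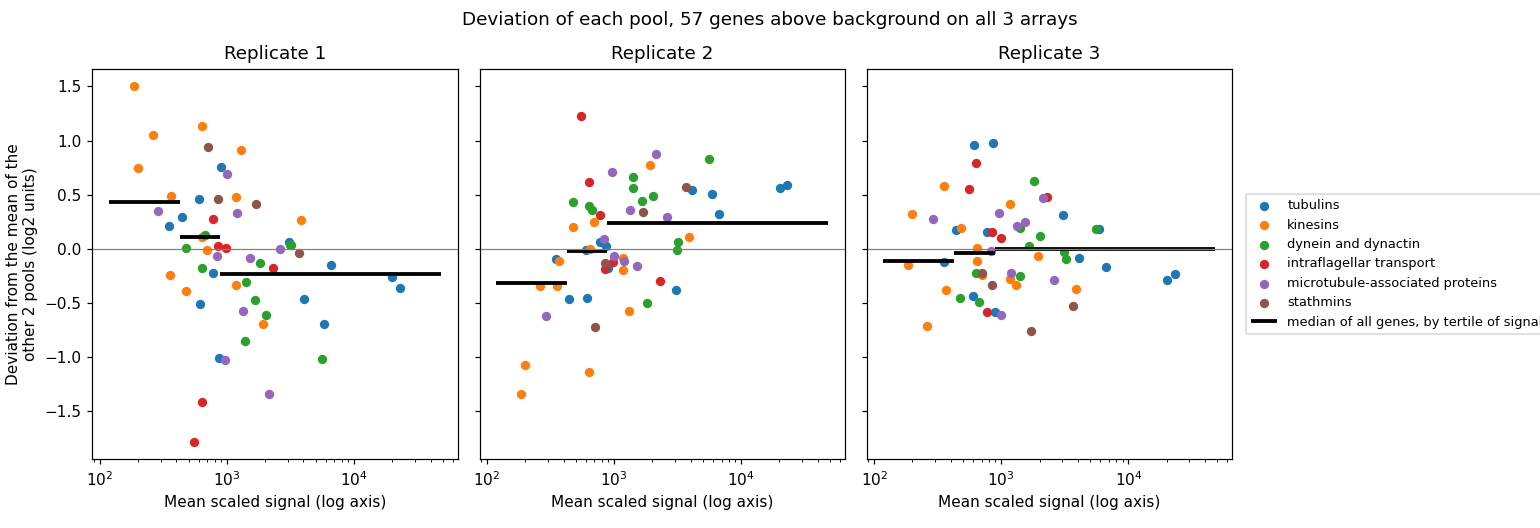
Each point is 1 of the 57 genes, with mean scaled signal on a log axis and the deviation of a pool from the mean of the other 2 in log2 units, coloured by role, and the black bars are medians of all 5006 genes in each tertile of signal. In replicate 1 the bars fall from 0.43 to -0.23 with rising signal, and in replicate 2 they rise from -0.32 to 0.24.

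Agreement between probe sets limits what a single pool shows. Of the 14 members with 2 probe sets above background on all arrays, both deviated to the same side in replicate 1 for 10 (71.4%), against 53.5% of the 774 such genes in all. The 4 that disagreed were Dynlrb1, Ift46, Mapre1 and Tubb2a. The pool of highest signal differed between both probe sets for 6 of the 14, against 62.4% of all 774. For the sign of the difference between replicates 2 and 3, both probe sets agreed for 8 of the 14 (57.1%), against 55.6% of all. Of the genes with a wide range, Mapt and Ift27 had such a second probe set lowest in the same pool. Another Mapt probe set above background on all arrays, not counted here, was instead lowest in replicate 2 (1111, 988 and 1056).

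**Figure D5:**
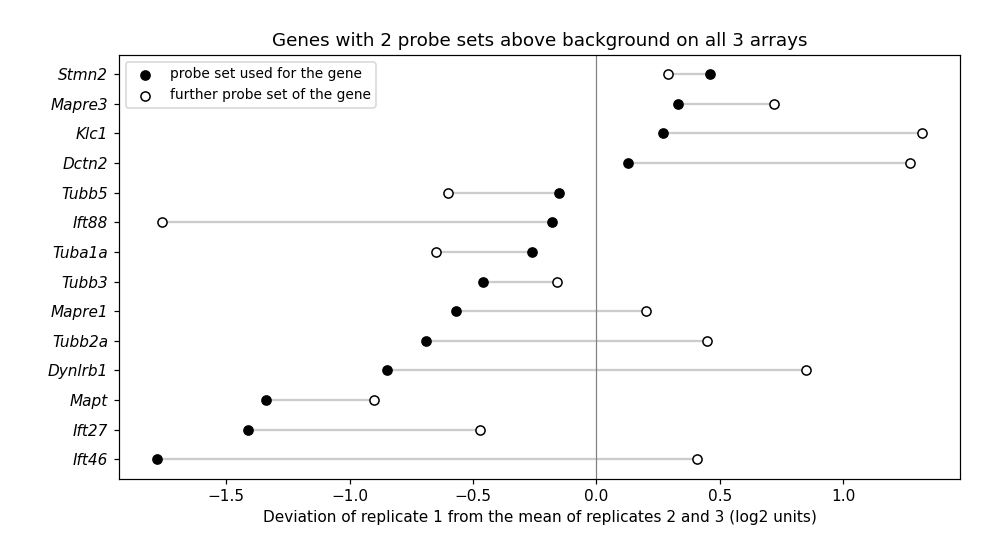
For 14 genes, the filled point is the log2 deviation of replicate 1 from the mean of replicates 2 and 3 at the probe set used, and the open point that of the gene's further probe set of highest mean. The points lie on opposite sides of 0 for Ift46 (-1.78 and 0.41), Dynlrb1 (-0.85 and 0.85), Tubb2a (-0.69 and 0.45) and Mapre1 (-0.57 and 0.20).

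Partners of this machinery were listed outside the members. Among 42 further genes listed for tubulin folding, severing, dynein regulation, the BBSome and the photoreceptor cilium, 21 were measured, and 17 of those (81.0%, against 60.7% of all genes) passed the limit on each array. Of these 17, 1 had a log2 range of 1 or more, against 28.3% of all such genes: the tubulin folding cofactor Tbca at 1229, 791 and 595. Pafah1b1, the gene of the dynein regulator LIS1, gave 1631, 1697 and 1809, and its partner Ndel1 gave 1345, 1534 and 1895. The BBSome subunit Bbs9 gave 721, 738 and 810. The photoreceptor genes Tulp1 (8932, 10978 and 9011), Arl3 (2025, 2544 and 1433) and Rpgr (423, 357 and 245) were above background in every pool. Clip2, of the plus-end linker family, passed it in replicate 1 alone (376, 71.5 and 106), and the dynein regulator Nde1 in replicates 2 and 3 (137, 214 and 268). The tubulin tyrosine ligase Ttl and the microtubule-binding ligase gene Mid1 were below it on all 3 arrays.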

How the data were processed

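The deposited table gives a linear intensity for each of 12488 probe sets on each array. The software and background correction behind these deposited intensities are not given in the sources used here. Per the deposited values, the mean after trimming 2% at each end was 500.2 to 500.3 on each array. Each array was rescaled by the same trimmed mean taken without controls (12422 probe sets), and values under its 5th percentile were raised to that percentile before log2. Gene symbols came from the platform annotation, in which 10833 probe sets carried 1 symbol, 396 several and 1193 none. For the 29 members with further probe sets, a plain suffix was preferred, then the highest mean. All 72 members had the same symbol in RefSeq (GRCm38.p6).

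The members, lists and tests were chosen with earlier results of these data known. Named with their values were 35 listed genes where measured and the 8 members of widest and the 5 of narrowest range. Other members were also given with values outside that rule, among them some whose probe sets disagreed. Members above background on no array were named. Kinesins were grouped by their known roles. No test was made, since there is 1 group, and the number of arrays limits the precision. Computations were tested on simulated data. Alternatives changed the background limit, scaling, floor, probe set and range threshold, and left out each replicate. Python 3.11.15, numpy 2.4.6, pandas 2.3.3 and matplotlib 3.10.9 were used.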

Additional observations from a re-analysis of the deposited data

How the results depend on the processing

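No paired analysis was possible because there is 1 group. Of 122 summary values under the alternatives, 105 stayed within 1.5 times a count or median SD, or within the spread of the pool medians for a deviation. Scaling to a common median gave median deviations of -0.36 in replicate 1 and 0.38 in replicate 2, 9 members highest and 36 lowest in replicate 1, 6 lowest in replicate 2 and 15 lowest in replicate 3. Genes at large shifted too, with median deviations of -0.28 and 0.32. Of them, 23.8% were highest and 54.2% lowest in replicate 1, 16.9% lowest in replicate 2 and 29.0% lowest in replicate 3. Averaging the probe sets of a gene gave a median deviation of -0.01 in replicate 2, and a log2 range of 1.5 or more was reached by 3 members, against 9.8% of all genes. Leaving out 1 replicate gave 0 to 10 members with a range of 1 or more, with 0 without replicate 1 and 6 without replicate 2. Among all genes above background on the arrays kept, 5.7%, 17.8% and 21.9% had such a range without replicates 1, 2 and 3. With 1 replicate left out, each of the remaining pools was highest for 28 to 31 members (replicate 1), 30 to 38 (replicate 2) and 22 to 27 (replicate 3), and lowest for 27 to 30, 22 to 28 and 31 to 38. The pools were highest for 54.4% to 54.8%, 45.6% to 51.3% and 45.2% to 48.7% of all genes in turn. The 57 members above background became 55 with the highest control or the 40th percentile as limit and 68 with the median control. The share of all genes, 60.7% as reported, became 55.5%, 55.0% and 85.8% with these limits in turn.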

Other observations

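Probe sets listed for several symbols were left out of the member counts. Of 5 such probe sets with a symbol of this kind, 1 listed for a pair of dynein light chain copies gave 4926, 6345 and 6425 in replicates 1, 2 and 3, and 1 listed for 4 such copies gave 185, 105 and 155, also above background on all 3 arrays. Of 2 listed for the same pair of alpha-tubulins, 1 gave 995, 1001 and 768 while the other passed the limit on no array. The motile cilium genes Foxj1 (163, 251 and 341) and Rsph1 (1711, 1036 and 1703) were above background in every pool, and the third measured one, Tekt1 (206, 50.8 and 10.5), in replicate 1 alone.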
